A study of Mus musculus with 2 samples.

Results

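Early skeletal commitment was examined through 10 genes of the 32285 in the files: Sox9, Sox5, Sox6, Acan and Cnmd of the cartilage programme and Runx2, Sp7, Runx1, Alpl and Spp1 of the bone programme. All 10 symbols were found, each once, and every member is accounted for below. The cells were cranial neural crest cells (CNCCs), the migratory population that builds most of the facial skeleton, sorted for GFP from mouse heads at E11.5 (day of embryonic development) and profiled by 10x 3′ single-cell RNA-seq. Control embryos were Tfap2a wt/flox and Tfap2b wt/flox, and mutant siblings were Tfap2a flox/flox and Tfap2b flox/flox. Both groups carried Wnt1CRE+ and the r26 mTmG/mTmG reporter, which turns from membrane Tomato to membrane GFP after recombination. The control is therefore a double heterozygote with CRE, and the Wnt1:CRE driver also labels cells of the dorsal brain. Each group was 1 library made from a pool of 2 embryos, so no difference has a replicate check and no p-value is given. All brackets hold 95% intervals for counting error only.

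Mesenchyme of the facial prominences first condenses and then takes the cartilage or the bone route. SOX9 starts the cartilage route, and SOX5 and SOX6 act with it on cartilage matrix genes such as Acan, which encodes aggrecan, and Cnmd, which encodes chondromodulin. RUNX2 is required for osteoblasts, SP7 (osterix) acts downstream of it, RUNX1 is a relative with roles in early skeletal progenitors and blood, Alpl encodes the alkaline phosphatase of mineralizing cells, and Spp1 encodes osteopontin, a phosphoprotein of bone matrix. At E11.5 the facial prominences still consist of mesenchyme before overt cartilage and bone.

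After filtering, the control library held 5625 cells with 82313680 unique molecular identifiers (UMIs, each marking 1 captured transcript) and the mutant library 5587 cells with 77251738. Median UMIs per cell were 13478 and 12234, and 6 barcodes occurred in both libraries. The mesenchyme had 3754 control and 2805 mutant cells with medians of 14557.5 and 14456 UMIs, and all 6 of its markers, Prrx1, Prrx2, Twist1, Fli1, Pdgfra and Col1a2, were higher there than in the other cells. It was split into clusters named from region markers as maxillary-like (1092 control and 849 mutant cells), mandibular-like (800 and 404), second arch-like (685 and 704) and a cluster with both frontonasal and periocular markers raised (1138 and 773), here called frontonasal/periocular. A 5th cluster of 39 and 75 cells, in which 69.2% and 68.0% were called doublets, was left unnamed and enters only the sums over all mesenchyme. The members took no part in the clustering. The targeted genes were lower in the mutant mesenchyme, Tfap2a at 13.4 against 19.5 CPM (UMIs of a gene per 1000000 UMIs of the same cells) and Tfap2b at 47.2 against 56.6 CPM, but the direction varied by cluster (Tfap2b was 8.47 against 4.06 CPM in second arch-like cells), and counted 3′ ends do not tell an intact from a recombined transcript. Markers of other cells were low in the mesenchyme but not equal. The 6 neuron markers summed to 40.9 CPM in control and 73.1 in mutant cells, all 6 being higher in the mutant, and the 6 brain progenitor markers to 67.0 and 94.5, again all higher. Blood genes summed to 8.66 and 1.76 CPM, endothelial genes to 3.30 and 3.89, epithelial genes to 7.92 and 9.20 and muscle genes to 6.75 and 6.06. Their part in the differences below was not tested, except where a value is given. Of control cells 98.8% held Xist and none the Y-linked Ddx3y, whereas in the mutant library 0.107% and 46.7% did. Sex therefore goes with genotype throughout, and their contributions cannot be told apart.

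The members lie on 10 separate loci in GRCm38 (mm10). Sox9 (ENSMUSG00000000567) is at chr11:112782224-112787760 and Sox5 (ENSMUSG00000041540) at chr6:143828425-144781977. The others are Sox6 (ENSMUSG00000051910) at chr7:115470872-116038796, Runx2 (ENSMUSG00000039153) at chr17:44495987-44814797, Runx1 (ENSMUSG00000022952) at chr16:92601466-92826149 and Sp7 (ENSMUSG00000060284) at chr15:102356606-102367182. Acan (ENSMUSG00000030607) lies at chr7:79053483-79115099, Cnmd (ENSMUSG00000022025) at chr14:79637690-79662170, Spp1 (ENSMUSG00000029304) at chr5:104435118-104441050 and Alpl (ENSMUSG00000028766) at chr4:137741733-137796384. Runx2 overlaps Supt3 on the opposite strand, which had 1522 control and 1139 mutant UMIs in the mesenchyme, and the antisense Runx2os1, which had 63 and 57. Sox6os, antisense to Sox6, had 34 and 28. The strand setting of the counting is not given in the sources used here, so reads of these pairs may not be fully separated.

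RefSeq promoter entries of the same build were available for 8 members (16 annotated starts), and 150 bases before each start were searched on both strands. The TFAP2 motif GCCNNNGGC, its own reverse complement, is the site of the factors targeted in this design. It occurred at 1 annotated start each of Runx1 and Alpl, and in 9.61% of all 32851 such windows. The RUNX motif TGTGGT, or ACCACA on the other strand, occurred before starts of Spp1, Runx2 and Sox6 and in 8.40% of all windows. The stretches of the members with the TFAP2 motif, and those of the bone regulator Runx2 and the bone matrix gene Spp1, are shown with the matches in capitals. A match is a run of letters and not a shown binding site.
Runx1, chr16:92826075-92826224, minus strand: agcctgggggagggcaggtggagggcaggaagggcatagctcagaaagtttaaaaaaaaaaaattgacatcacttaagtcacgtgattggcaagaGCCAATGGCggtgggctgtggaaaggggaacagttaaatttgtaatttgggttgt
Alpl, chr4:137796385-137796534, minus strand: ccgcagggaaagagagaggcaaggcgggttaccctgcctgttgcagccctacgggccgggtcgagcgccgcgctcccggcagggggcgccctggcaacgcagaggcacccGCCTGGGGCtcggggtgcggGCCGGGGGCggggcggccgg
Runx2, chr17:44814628-44814777, minus strand: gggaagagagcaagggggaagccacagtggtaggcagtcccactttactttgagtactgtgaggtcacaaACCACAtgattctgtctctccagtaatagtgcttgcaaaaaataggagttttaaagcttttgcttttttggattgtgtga
Spp1, chr5:104434961-104435110, plus strand: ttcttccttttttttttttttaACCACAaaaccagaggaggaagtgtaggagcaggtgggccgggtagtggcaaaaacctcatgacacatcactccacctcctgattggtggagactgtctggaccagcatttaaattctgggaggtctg

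Across all mesenchyme, Sox9 and Sox5 were the most abundant members, Runx2 and Sox6 followed at similar levels, and the others were rare. Spp1 had the widest ratio between the libraries. A minimum of 100 UMIs in either library was met by 7 of the 10 members. Only Spp1 of these lay 1.5-fold or more higher in the mutant and none lower, beside 2.3% of 11643 genes higher and 0.876% lower by the same rule. Spp1 passed the UMI minimum through the mutant library alone, and its call is therefore no support for a direction of the set. The median ratio over all genes was 0.02 on the log2 scale.

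Sox9 had 9231 control and 6595 mutant UMIs, or 159 [155, 162] and 151 [147, 154.5] CPM, a log2 ratio of mutant over control of -0.07 [-0.12, -0.03]. Sox5 had 2420 and 1560 UMIs, or 41.6 and 35.7 CPM, and a log2 ratio of -0.22 [-0.31, -0.13]. Sox6 had 475 and 371 UMIs, 8.16 and 8.49 CPM, and a log2 ratio of 0.06 [-0.14, 0.26]. Of the SOX trio, then, Sox5 was the one furthest apart, and all lay well inside 1.5-fold. With each cell thinned to 5000 UMIs, which left out 51 control and 55 mutant cells, 39.7% [38.1, 41.3] of control and 40.1% [38.3, 42.01] of mutant mesenchyme cells held a Sox9 UMI. The thinned shares were 16.2% and 14.1% for Sox5 and 3.38% and 3.78% for Sox6. Sox9 was not particular to mesenchyme, since 23.9% and 25.97% of the thinned cells of the class with neuron and brain progenitor markers held it too.

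The cartilage matrix members were almost silent in mesenchyme. Acan had 5 control and 3 mutant UMIs, and Cnmd 5 and 14, over all mesenchyme cells. These counts allow no statement on Acan. For Cnmd the log2 ratio of 1.90 [0.34, 3.73] rests on 12 mutant cells.

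Of the bone regulators, Runx2 had 580 control and 566 mutant UMIs in the mesenchyme, or 9.96 [9.17, 10.8] and 12.95 [11.9, 14.1] CPM. Its log2 ratio was 0.38 [0.21, 0.55], higher in the mutant by more than the counting error and less than 1.5-fold. The thinned shares of cells with a Runx2 UMI were 4.27% and 5.16%, against 0.454% and 0.325% in the neuron and brain progenitor class. Sp7 had 93 and 95 UMIs, 1.60 and 2.17 CPM, and a log2 ratio of 0.44 [0.02, 0.87]. When the limit on mitochondrial UMIs was lowered from 10% to 5%, the Sp7 ratio was 0.0134, so the Sp7 difference depended on that filter. Runx1 had 173 and 104 UMIs and a log2 ratio of -0.32 [-0.69, 0.04], and Alpl 132 and 106 with 0.10 [-0.29, 0.48]. The intervals of both include 0.

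Spp1 had 44 control and 174 mutant UMIs, 0.756 [0.549, 1.01] and 3.98 [3.41, 4.62] CPM, a log2 ratio of 2.40 [1.91, 2.91]. The UMIs sat in 25 control and 65 mutant cells, and the 10 cells with the most held 65.9% and 49.4% of them. Leaving them out takes a larger share from the control, and the log2 ratio of the remainder was 2.97. Spp1 is also a gene of macrophages. The immune list, Ptprc, Csf1r, C1qa, Lyz2 and Cx3cr1, summed to 0.0859 CPM in control and 0.229 CPM in mutant mesenchyme, with 3 and 1 of its 5 genes at 0. No Spp1 cell of the control and 1 of 65 of the mutant held an immune UMI.

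**Figure D1:**
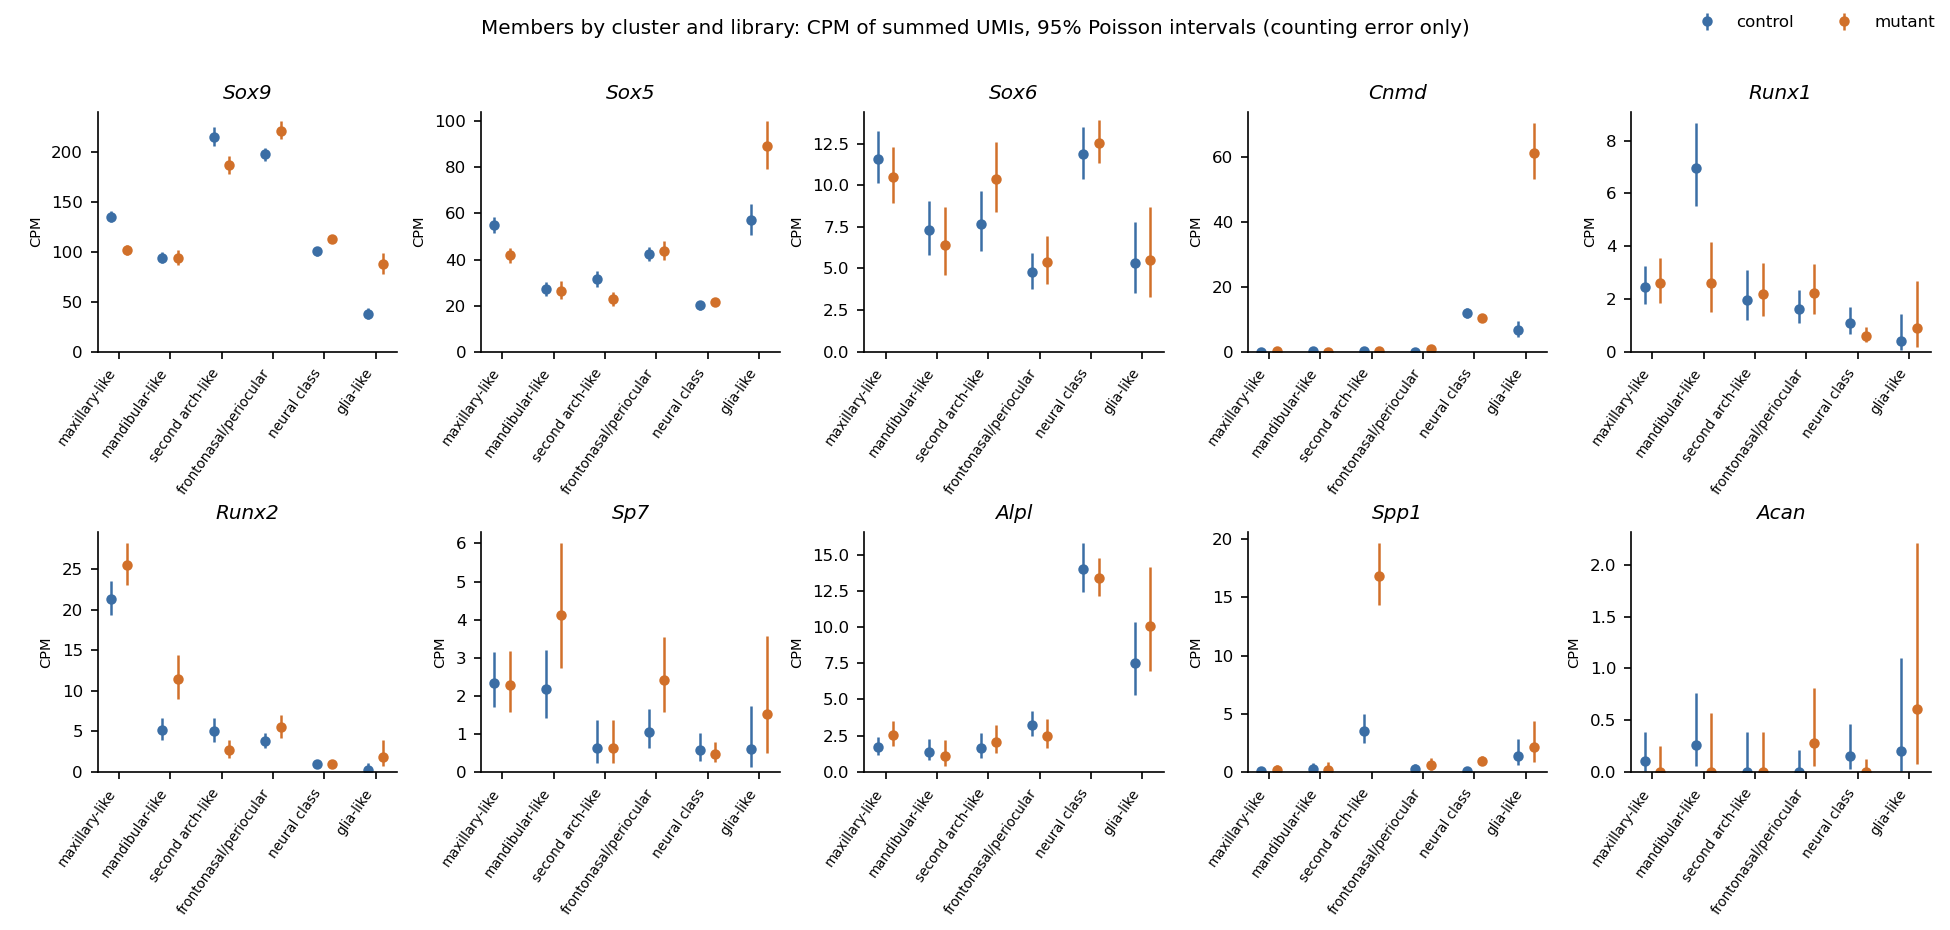
Level of each member (vertical axis, CPM of summed UMIs, linear from 0) in the mesenchyme clusters, the class with neuron and brain progenitor markers (neural class) and the glia-like class, in control (blue) and mutant (orange). Points are single libraries and bars are 95% Poisson intervals for counting error; Runx2 is highest in the maxillary-like cluster of both libraries, Spp1 in the second arch-like cluster, and Cnmd and Alpl outside mesenchyme.

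By region, Sox9 was highest in the second arch-like and frontonasal/periocular clusters and lowest in the mandibular-like cluster. In control cells it stood at 215 [206, 224] CPM in the second arch-like cluster, 197 [191, 204] in the frontonasal/periocular cluster, 135 [130, 140] in the maxillary-like cluster and 93.8 [88.3, 99.5] in the mandibular-like cluster, each neighbour apart beyond its interval. In mutant cells the order was frontonasal/periocular at 221, second arch-like at 186, maxillary-like at 102 and mandibular-like at 93.8 CPM, and the maxillary-like and mandibular-like intervals overlapped. Thus the mutant value was lower in the maxillary-like cluster, with a log2 ratio of -0.41 [-0.50, -0.32], and in the second arch-like cluster, with -0.20 [-0.30, -0.11]. It was higher in the frontonasal/periocular cluster, with 0.16 [0.09, 0.24], and level in the mandibular-like cluster, with 0.00 [-0.14, 0.15]. No Sox9 ratio reached 1.5-fold. The frontonasal/periocular ratio depended on how cells were assigned, since it was -0.13 when each cell went to the region with the largest marker sum and -0.0115 when each list was first scaled to its mean. By the same assignments the maxillary-like ratio was -0.23 and -0.38, and the second arch-like ratio 0.32 (61 control and 43 mutant cells) and -0.0376.

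Sox5 was highest in the maxillary-like cluster of the control, at 54.9 [51.6, 58.3] CPM, followed by the frontonasal/periocular cluster at 42.4. It was lower in the mutant in the maxillary-like cluster, 41.8 [38.6, 45.2] CPM and a log2 ratio of -0.39 [-0.54, -0.25], and in the second arch-like cluster, 22.8 against 31.4 CPM and -0.46 [-0.72, -0.21]. In the frontonasal/periocular and mandibular-like clusters its ratios were 0.05 [-0.12, 0.22] and -0.04 [-0.31, 0.24]. Sox9 and Sox5 were thus both lower in the maxillary-like and second arch-like clusters. With cells assigned by marker sums the Sox5 ratio was -0.17 in maxillary-like and 0.56 in second arch-like cells, and with scaled lists -0.24 and -0.22. Sox6 was highest in the maxillary-like cluster of both libraries, at 11.6 and 10.5 CPM, and none of its 4 cluster ratios, between -0.19 and 0.43, had an interval without 0.

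Runx2 had the most uneven pattern of the regulators. The maxillary-like cluster held 69.3% of the control and 67.3% of the mutant Runx2 UMIs of the mesenchyme, with 29.1% and 30.3% of its cells. With cells assigned by marker sums the maxillary region held fewer Runx2 UMIs (213 and 196) than the frontonasal/periocular region (254 and 263), and with scaled lists about as many (211 and 208 against 203 and 215), in fewer cells. Its level there was 21.4 [19.3, 23.6] CPM in control and 25.5 [23.0, 28.2] in mutant cells, 402 and 381 UMIs, and the log2 ratio was 0.25 [0.05, 0.46]. No other cluster exceeded 5.14 CPM in the control. The highest control level was 5.67 times the lowest and the highest mutant level 9.38 times the lowest.

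In the mandibular-like cluster Runx2 was 5.14 [3.91, 6.63] CPM in control and 11.48 [9.03, 14.4] in mutant cells, from 59 and 75 UMIs, a log2 ratio of 1.16 [0.65, 1.68]. In the second arch-like cluster the direction was the opposite, 4.99 and 2.72 CPM from 48 and 26 UMIs, with -0.88 [-1.62, -0.16]. In the frontonasal/periocular cluster it was 3.77 and 5.48 CPM, with 0.54 [0.01, 1.07]. These clusters had under 100 Runx2 UMIs in either library and so took no part in the counts of genes past 1.5-fold. The thinned shares followed the levels, 2.01% and 5.22% of mandibular-like cells and 3.25% and 1.02% of second arch-like cells. With cells assigned by marker sums the mandibular-like ratio was 0.45, or 0.77 with scaled lists, and the second arch-like ratio 0.14, or -0.27.

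Runx1 was highest in the mandibular-like cluster of the control, at 6.97 [5.52, 8.67] CPM, beside 1.62 to 2.45 CPM in the other clusters. In mutant cells the mandibular-like level was 2.60 [1.52, 4.17] CPM, close to the 2.20 to 2.61 CPM of the others. The UMIs were 80 and 17, in 53 and 16 cells, and the log2 ratio was -1.42 [-2.27, -0.65]. Runx1 and Runx2 therefore lay in opposite directions in the mandibular-like cells, Runx1 lower and Runx2 higher in the mutant. Of the immune genes, 1 UMI in the control and 4 in the mutant fell in this cluster, and none of the Runx1 cells held one. Blood genes, led by haemoglobin, summed to 9.06 CPM in control and 0.306 CPM in mutant mandibular-like cells. They were lower in the mutant in the other clusters too. Their sums were 9.04 and 1.27 CPM in maxillary-like, 7.91 and 0.941 in second arch-like and 8.70 and 4.36 in frontonasal/periocular cells. Their part in the Runx1 difference was not tested.

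Sp7 was present at 2.34 and 2.18 CPM in the maxillary-like and mandibular-like clusters of the control, from 44 and 25 UMIs. It was higher in the mutant in the mandibular-like cluster, 4.13 CPM and a log2 ratio of 0.92 [0.09, 1.77], and in the frontonasal/periocular cluster, 2.41 against 1.04 CPM and 1.21 [0.29, 2.16], and level in the maxillary-like cluster, -0.04 [-0.73, 0.64]. In the mandibular-like cells Sp7 and Runx2 thus shared a direction, on 25 and 27 UMIs for Sp7. With cells assigned by marker sums these Sp7 ratios were 0.42 in mandibular-like and 0.72 in frontonasal/periocular cells, and after thinning the latter was 0.38. The lower mitochondrial limit, on which the Sp7 difference over all mesenchyme depended, was not tried within clusters. Whether these cluster differences of Sp7, and the direction shared with Runx2, hold under that limit was therefore not tested. Alpl lay between 1.07 and 3.25 CPM in all 4 clusters of both libraries, and none of its ratios had an interval without 0. It was higher outside mesenchyme, at 14.0 and 13.4 CPM in the neuron and brain progenitor class.

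**Figure D2:**
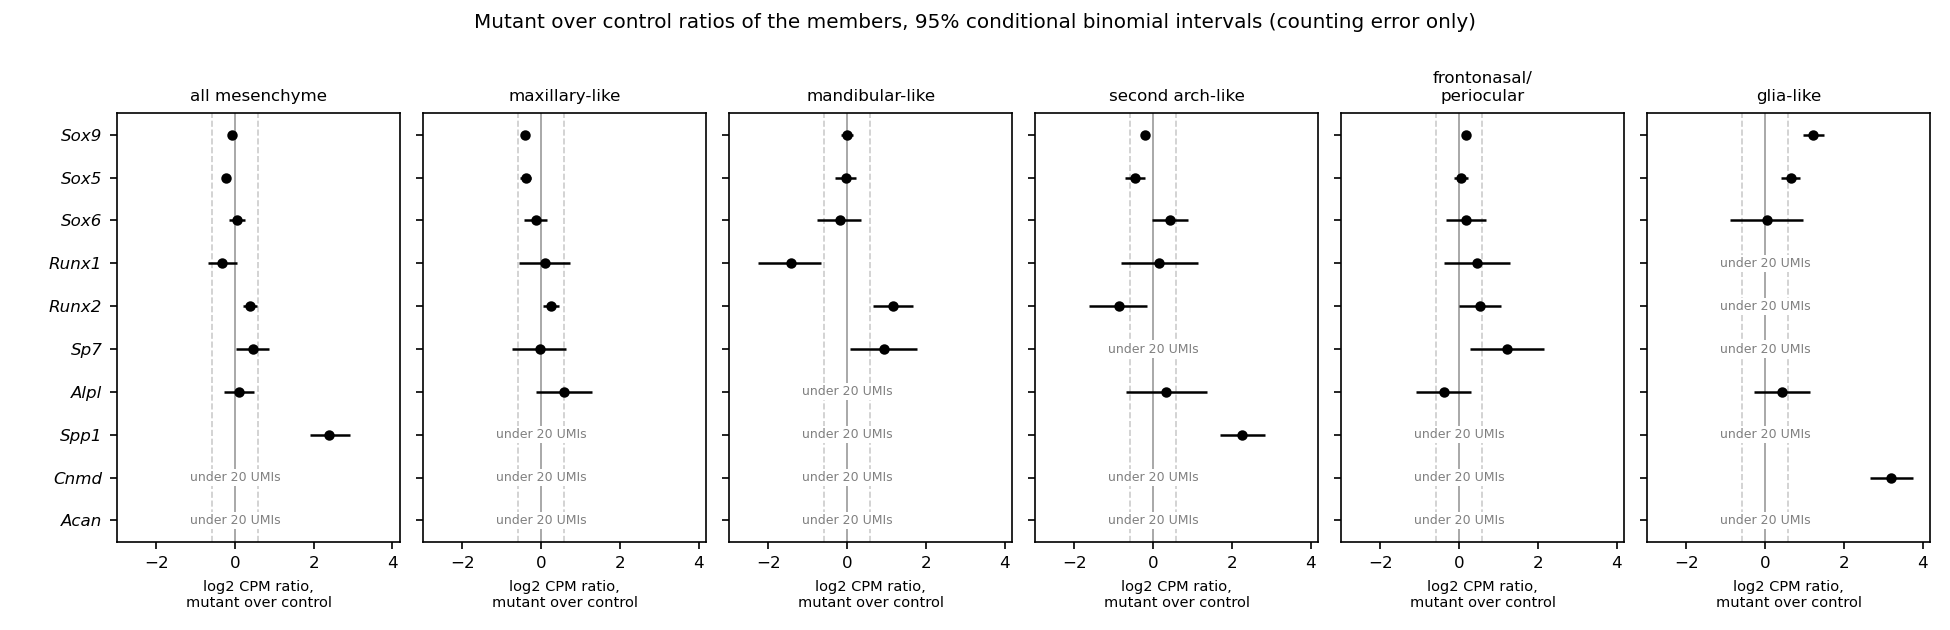
Log2 ratio of mutant over control CPM (horizontal axis) for each member (rows) in all mesenchyme, in its clusters and in the glia-like class. Bars are 95% conditional binomial intervals for counting error and dashed lines mark 1.5-fold; members under 20 UMIs in both libraries are not drawn, and Spp1 in second arch-like and Cnmd in glia-like cells lie furthest to the right.

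Spp1 was concentrated in second arch-like cells, which held 77.3% of the control and 92.5% of the mutant Spp1 UMIs of the mesenchyme. This depended on how cells were assigned. With scaled marker lists the second arch held 12 control and 63 mutant Spp1 UMIs and the frontonasal/periocular region 16 and 40, and with unscaled sums the second arch held 3 and 1. The level in the second arch-like cluster was 3.54 [2.45, 4.94] CPM in control and 16.8 [14.3, 19.6] in mutant cells, 34 and 161 UMIs, a log2 ratio of 2.25 [1.71, 2.83]. In the other named clusters no library had more than 6 Spp1 UMIs. The second arch-like Spp1 cells numbered 16 and 53, and 3 control and 14 mutant cells held at least 4 Spp1 UMIs, up to 6 in the control and 16 in the mutant. None of them was called a doublet or held the glial gene Sox10, and 84.9% of the mutant ones held Twist1. None held a Runx2 UMI, whereas Sox9 was held by 87.5% of those in the control and 58.5% in the mutant. Over all second arch-like cells 5.84% of control and 3.41% of mutant cells held Runx2, and 67.7% and 65.2% held Sox9.

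Counts past 1.5-fold among the members with at least 100 UMIs in a cluster were few. In the maxillary-like cluster, 4 members were eligible and none lay past it, beside 0.668% of all genes higher and 0.584% lower. In the mandibular-like cluster, 2 were eligible and none lay past it, beside 0.598% and 1.12%. The frontonasal/periocular cluster also had 2, with none past it beside 3.96% and 1.2%, and the second arch-like cluster had 3, of which Spp1 was higher, beside 2.07% and 0.849%, again eligible through the mutant alone.

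Clustered more finely (resolution 0.4), the maxillary-like cells separated into a maxillary-like cluster and a cluster led by Foxl2 and Gata3. In the latter 4 of 6 frontonasal markers were higher than in other mesenchyme, and Alx1 was 375 CPM in control and 287 in mutant cells against 31.4 and 21.1 in the finer maxillary-like cells. It took 477 of 1092 maxillary-like cells in the control and 389 of 849 in the mutant, so that the maxillary-like label holds in part only. The Sox9 difference was widest in the Foxl2/Gata3-led cells, at 116 CPM in control and 61.6 in mutant cells, a log2 ratio of -0.92 [-1.10, -0.74] from 846 and 362 UMIs. In the finer maxillary-like cells it was 152 and 133 CPM, with -0.19 [-0.29, -0.08]. Runx2 was at its highest in the Foxl2/Gata3-led cells, at 23.6 CPM in control and 30.3 in mutant cells, with 0.36 [0.05, 0.67]. Sox5 was lower in both, with -0.55 [-0.80, -0.30] and -0.28 [-0.46, -0.11]. The Foxl2/Gata3-led cells thus combined the lowest mutant Sox9 level of the finer clusters with the highest Runx2 level.

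Second arch-like cells separated into a second arch-like cluster, with 3 of 5 second arch markers higher, and one led by Cyp26a1, Shisa3 and Hmx1, with all 5 higher. The latter took 152 of 685 cells in the control and 264 of 704 in the mutant. Its make-up differed between the libraries. All 5 second arch markers were lower in its mutant cells, such as Hoxa2 at 55.8 CPM in control and 23.6 in mutant cells. Hoxb3 was 23.5 and 5.16 CPM there, whereas Zic1 was 2.35 and 9.21 and Heyl 3.53 and 14.0. The part of this make-up in the Spp1 difference below was not tested. In the Cyp26a1-led cluster, 0 of 155 control cells and 27 of 265 mutant cells held Spp1. The mutant level there was 32.8 [26.3, 40.4] CPM from 89 UMIs. This was 18.6 times a floor of 3 counts in the control cells of the cluster, a point value and not a lower limit. In the finer second arch-like cluster Spp1 was 4.47 and 10.8 CPM, from 34 and 72 UMIs, with a log2 ratio of 1.27 [0.66, 1.90]. The 10 highest mutant cells held 73.0% and 73.6% of the UMIs of these clusters. Runx2 was lower in the finer second arch-like cluster, 4.99 and 2.10 CPM, with -1.25 [-2.25, -0.34].

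Frontonasal/periocular cells separated into a frontonasal-like cluster and one led by Vtn, Acta2 and Tagln, with mural and periocular markers both higher, which took 349 of 1138 cells in the control and 367 of 773 in the mutant. Sox9 was 184 CPM in control and 211 in mutant frontonasal-like cells, a log2 ratio of 0.20 [0.10, 0.29], and 240.0 and 238 CPM in the Vtn-led cells, -0.01 [-0.15, 0.12]. Runx2 was 5.14 and 8.09 CPM in the frontonasal-like cells, with 0.65 [0.12, 1.18]. The mandibular-like cluster stayed nearly whole, and its Runx1 and Runx2 ratios were -1.44 and 1.15.

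**Figure D3:**
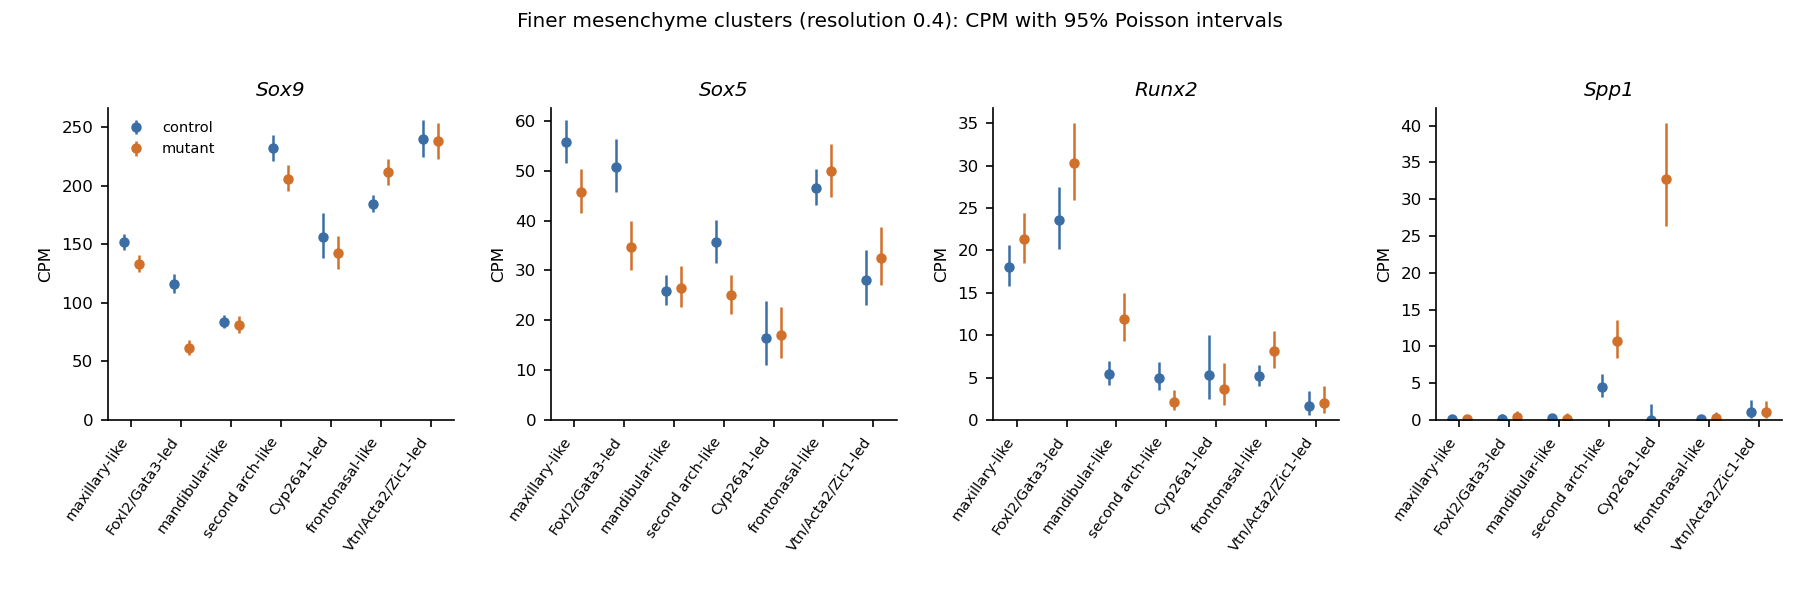
CPM (vertical axis, linear from 0) of Sox9, Sox5, Runx2 and Spp1 in the finer mesenchyme clusters, control in blue and mutant in orange, with 95% Poisson intervals for counting error. Mutant Sox9 is lowest and Runx2 highest in the Foxl2/Gata3-led cells, and Spp1 is highest in the mutant Cyp26a1-led cells, where the control has 0 UMIs.

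Detection of pairs of regulators in single cells was compared after thinning each cell to 5000 UMIs. In control mesenchyme 21.2% [19.1, 23.4] of cells with a Sox9 UMI also held Sox5, against 12.9% [11.53, 14.4] of cells without. In the mutant these shares were 18.4% [16.1, 20.8] and 11.2% [9.70, 12.8]. Sox6 was held by 4.90% [3.85, 6.13] and 2.37% [1.78, 3.09] of such cells in the control and 4.98% [3.77, 6.44] and 2.98% [2.21, 3.92] in the mutant, where the intervals overlap. Sox5 was thus more frequent in cells with Sox9 in both libraries, beyond counting error in the maxillary-like and second arch-like clusters too. Sox6 was more frequent beyond counting error over all control mesenchyme. Within control clusters the Sox6 intervals were apart in mandibular-like cells only (7.26% with and 1.78% without Sox9). For Sox5 the intervals overlapped in frontonasal/periocular cells, at 19.4% with and 16.2% without Sox9 in the control and 20.9% and 14.2% in the mutant. In mandibular-like cells they were apart in the control (25.1% and 10.5%) and overlapped in the mutant (17.0% and 9.27%).

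Runx2 lay the other way in the control. There, 3.27% [2.42, 4.31] of cells with Sox9 and 4.92% [4.06, 5.90] of cells without held Runx2. In the mutant they were 4.53% [3.38, 5.93] and 5.59% [4.53, 6.81]. In each library the intervals with and without Sox9 overlap. Within the maxillary-like cluster the shares were 7.51% with and 11.02% without Sox9 in the control and 12.6% and 10.9% in the mutant, again with overlapping intervals. By Sox5, Runx2 was found in 8.53% [5.94, 11.8] of mutant cells with and 4.61% [3.803, 5.54] without, and in the control in 5.68% [3.96, 7.84] and 3.99% [3.33, 4.74], where the intervals overlap. Within the maxillary-like cluster the shares with and without Sox5 were 12.9% and 11.1% in the mutant and 9.39% and 9.86% in the control. In the other named clusters the share was higher with Sox5 in both libraries. The intervals with and without Sox5 overlapped in every named cluster of both libraries. Sp7 was found in 0 of 158 control cells with Runx2, with an exact upper limit of 2.31%, beside 1.02% [0.712, 1.40] of control cells without, where the intervals overlap. It was found in 7 of 142 mutant cells with Runx2, 4.93% [2.00, 9.89], beside 0.767% [0.469, 1.18] of mutant cells without. Free RNA and doublets were not separated from shared expression in these counts.

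**Figure D4:**
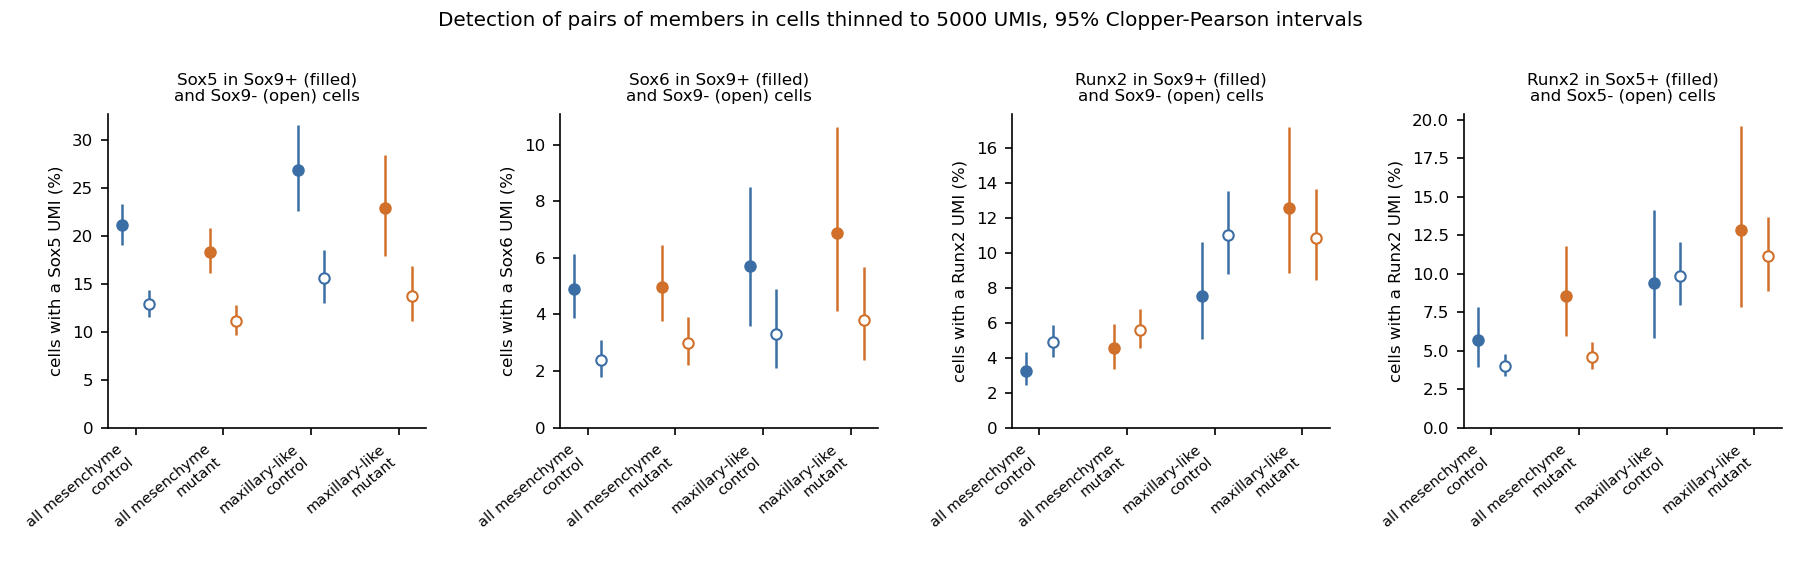
Share of cells (vertical axis, percent) with a UMI of the second gene among cells with (filled) and without (open) a UMI of the first, in all mesenchyme and in maxillary-like cells of control (blue) and mutant (orange), after thinning to 5000 UMIs. Bars are 95% Clopper-Pearson intervals; Sox5 is more frequent in Sox9+ cells of both libraries, and the Runx2 intervals with and without Sox9 overlap.

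Outside mesenchyme, the glia-like class (260 control and 201 mutant cells, with Sox10, Erbb3 and Foxd3 among its markers) showed the widest differences of Sox9, Sox5 and Cnmd. Sox9 was 37.6 [32.5, 43.4] CPM in control and 87.8 [77.9, 98.5] in mutant cells, from 190 and 287 UMIs, a log2 ratio of 1.22 [0.95, 1.49]. Sox5 was 57.0 and 89.3 CPM, with 0.65 [0.41, 0.89]. Cnmd was 6.73 [4.66, 9.41] and 61.5 [53.3, 70.6] CPM, from 34 and 201 UMIs in 27 and 79 cells, with 3.19 [2.66, 3.76]. All 3 members with at least 100 UMIs here lay past 1.5-fold higher, beside 4.49% of 6465 genes higher and 5.14% lower, and Cnmd passed that minimum through the mutant alone.

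The make-up of the glia-like class differed between the libraries. Its 6 neuron markers summed to 2062 CPM in control and 291 in mutant cells, with 1 of 6 higher in the mutant. Among cells with more glia than neuron marker UMIs, 161 control and 189 mutant cells, Cnmd was 8.95 and 63.2 CPM, a log2 ratio of 2.82 [2.24, 3.45]. Sox9 was 50.2 and 93.3 CPM there, with 0.89 [0.61, 1.18], and Sox5 was 72.0 and 92.0 CPM, with 0.35 [0.10, 0.61], so that Sox5 no longer lay 1.5-fold apart. Of the 79 mutant cells with Cnmd, 93.7% held Sox10 and 7 were called doublets, beside 89.3% and 9 of the 122 mutant cells without. In the control 77.8% of cells with Cnmd and 65.7% of cells without held Sox10. After thinning, 3.88% [1.87, 7.01] of control and 25.0% [19.2, 31.6] of mutant glia-like cells held Cnmd, against 0.0270% and 0.182% of mesenchyme cells.

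Members of the wider programmes were read from lists of related genes, with the rule of 100 UMIs and 1.5-fold. In all mesenchyme, 10 of 24 chondrogenic genes were eligible, of which none was higher and 1 lower, with a median log2 ratio of -0.02. Hapln1, a link protein of cartilage matrix, was the lower gene, with 6.03 and 3.04 CPM and a log2 ratio of -0.99 [-1.29, -0.70], and Matn3, a matrilin, had the highest, 0.45 [0.07, 0.83]. Of 21 osteogenic genes 12 were eligible and none passed, with a median of 0.00. The extremes of this list were Msx2, a homeobox gene of osteogenic mesenchyme, at -0.57 [-0.65, -0.48] and Sparc, which encodes osteonectin, at 0.52 [0.47, 0.57]. All 6 antagonists and all 9 condensation genes were eligible and none passed. Hand2, at -0.48 [-0.57, -0.38], and Hey1, at 0.43 [0.25, 0.61], were the extremes of the former, and Prrx2, at -0.07, and the cadherin Cdh2, at 0.34 [0.27, 0.41], of the latter.

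Of the mesenchyme clusters, frontonasal/periocular cells had the most list genes past 1.5-fold. There 4 of 8 eligible chondrogenic genes were higher and 2 lower, beside 3.96% and 1.2% of all genes, with a median of 0.43 beside 0.01 over all genes. The cartilage collagen genes Col2a1 (175 and 275 CPM, log2 ratio 0.65), Col9a1 (0.94), Col9a2 (1.33) and Col11a1 (0.85) were the higher ones, and Hapln1 (-1.09) and Sox8 (-0.81) the lower. Col9a2 (89 control and 140 mutant UMIs) met the minimum of 100 UMIs through the mutant alone, and Hapln1 (282 and 83) and Sox8 (152 and 54) through the control alone, so these calls lend no support to a direction. Of 9 eligible osteogenic genes, Sparc (0.93), Col1a1 (0.96) and Mef2c (0.60) were higher and Dlx5 (-0.95, eligible through the control alone) lower. In the finer frontonasal-like cells Col2a1, Col9a1, Col9a2 and Col11a1 had ratios of 0.72, 0.93, 1.27 and 0.75, and in the Vtn-led cells 0.28, 0.52, 1.35 and 0.58. The collagen genes were thus higher in both finer clusters, by less than 1.5-fold for Col2a1, Col9a1 and Col11a1 in the Vtn-led cells. Cells of both finer clusters still differed in region or mural markers between the libraries. Zic1 was 7.82 CPM in control and 49.9 in mutant frontonasal-like cells, and Pax3 120 and 61.4. In the Vtn-led cells Rgs5 was 2.92 and 26.6 CPM and Alx1 263 and 133. The part of this make-up in the collagen differences was not tested. Mef2c was -0.22 in the frontonasal-like and 0.77 in the Vtn-led cells. Sparc was 0.79 and 0.52 in these, the latter within 1.5-fold, and Col1a1 0.61 in both, below their merged ratios. Control Col1a1 was 54.5 CPM in frontonasal-like and 226 in Vtn-led cells, whose share of the merged cluster differed between the libraries. The part of that share in the merged ratios was not tested.

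In the other clusters the list genes past 1.5-fold were mostly lower in the mutant. They were Col9a3 (-0.73) and Msx2 (-0.78) in maxillary-like cells, Trps1 (-0.89), Dlx3 (-0.71) and Dlx6 (-0.67) in second arch-like cells, and Col9a2 (-0.82), Dlx3 (-1.49), Dlx6 (-0.64) and the adhesion gene Ncam1 (-0.67) in mandibular-like cells. All genes past 1.5-fold lower made up 0.584%, 0.849% and 1.12% in these clusters. Eligible chondrogenic, osteogenic, antagonist and condensation genes numbered 6, 11, 6 and 8 in maxillary-like cells. In second arch-like cells they numbered 5, 10, 5 and 8, and in mandibular-like cells 7, 12, 5 and 8. Col9a3 (111 control and 53 mutant UMIs) and, in mandibular-like cells, Col9a2 (263 and 85) and Dlx3 (148 and 30) were eligible through the control alone, where they were high. Ncam1 was higher in second arch-like cells (0.78), beside 2.07% of all genes. It was 0.46 in the finer second arch-like and 1.30 in the Cyp26a1-led cells. In the finer second arch-like cluster Trps1 was -1.28, and Dlx3 (-0.50) and Dlx6 (-0.41) lay within 1.5-fold. In the Cyp26a1-led cells Trps1 was 0.16 [-0.16, 0.48], and Dlx3 and Dlx6 had few UMIs. Col9a3 was -0.24 in the finer maxillary-like and -1.22 in the Foxl2/Gata3-led cells. The part of cluster make-up in these differences was not tested. Msx2, Dlx3 and Dlx6 encode homeodomain factors of the prominences. In the glia-like class 6 of 7 eligible chondrogenic genes were higher, beside 4.49% of all genes, among them Col9a2 (2.30) and Cytl1 (2.56), as were 3 of 5 osteogenic, 1 of 8 condensation and none of 3 antagonist genes, in cells whose neuron marker sums differed as given above. Cytl1 (47 control and 180 mutant UMIs) and Col9a1 (84 and 125) were eligible there through the mutant alone.

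**Figure D5:**
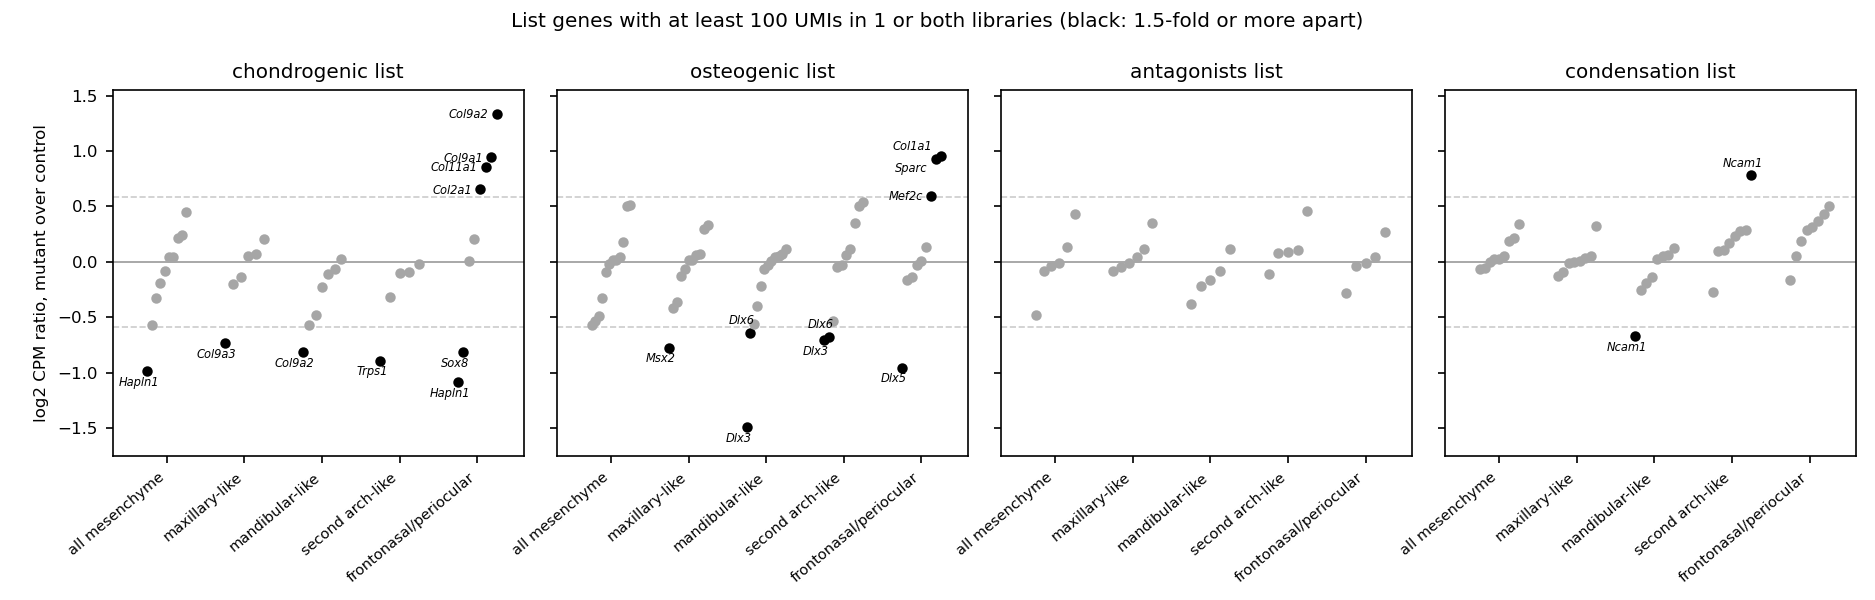
Log2 ratio of mutant over control CPM (vertical axis) of every list gene with at least 100 UMIs in 1 or both libraries (points), by list and by mesenchyme cluster, with dashed lines at 1.5-fold. Named black points lie past 1.5-fold; the cartilage collagen genes stand above the upper line in frontonasal/periocular cells and Hapln1 lies below the lower line in all mesenchyme.

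Likeness was taken as Pearson's r of log2(CPM + 1) over 8 profiles, the 4 clusters in 2 libraries, among 5960 genes with at least 1000 UMIs in the mesenchyme of each library. Sox9 was most like Leprotl1 (0.98), Ergic3 (0.96) and Rap2a (0.95), and Runx2 most like Commd8 (0.97), Lef1 (0.96) and Eif2b1 (0.95). Sox5 was most like Smad1, Lap3 and Sar1b (each 0.95), and Sox6 most like Trim59, Ttc9c and Slit2 (each 0.94). The 8 profiles share 2 libraries, and between 17 and 32 genes exceeded 0.9 for each member, so that these names are a description only.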

How the data were processed

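The files hold raw UMI counts, 1 for each gene in each barcode. The authors made these counts with Cell Ranger (6.0.0 in the file headers) and mm10, and deposited filtered barcodes with no normalization. As in the study, barcodes with over 10% mitochondrial UMIs, under 200 or over 7500 genes were removed. Libraries were integrated and clustered with Seurat 5.3.0 (2000 variable genes, 30 dimensions, resolution 0.05; mesenchyme again in 20 dimensions at 0.2). Members, list genes, Tfap2a, Tfap2b, Xist, Tsix and Y-linked genes, 799 in all, took no part in clustering. Doublets were called with Scrublet in scanpy 1.11.5 and kept. UMIs were summed per library and cluster and scaled to CPM, with exact Poisson, conditional binomial or Clopper-Pearson intervals at 95%, which cover counting error only. With 1 library per group no p-value was computed. Alternatives included TMM factors (edgeR 4.0.16), which shifted mesenchyme ratios by -0.03. The code was tested on simulated data. By rule, the text names all 10 members, the list genes past 1.5-fold and the highest and lowest of each list in mesenchyme, and the 3 genes most like a member. List genes named in clusters or in glia-like cells were chosen after their values were seen. The members and lists were chosen with earlier results of these data known. Clusters were named from lists of marker genes, and naming the frontonasal/periocular cluster by both lists was decided after it was seen. Some marker genes of the glia-like class are not reported here.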

Additional observations from a re-analysis of the deposited data

Results flagged for a closer look

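Members whose ratios pointed in opposite directions in different cells, each with a counting interval on 1 side of 0, are given here as differences of log2 ratios. The difference itself was not tested, since each group is 1 library. Sox9 in frontonasal/periocular cells lay 0.57 above its ratio in maxillary-like cells and 0.37 above that in second arch-like cells, both of which depend on how cells are assigned to regions. In the neuron and brain progenitor class, where the Sox9 ratio was 0.17, the gaps to these clusters were 0.57 and 0.37. In the glia-like class Sox9 lay 1.63 above the maxillary-like and 1.43 above the second arch-like ratio, and Sox5 lay 1.04 and 1.11 above them, in a class whose neuron markers differed between the libraries. Runx2 in second arch-like cells, from 48 control and 26 mutant UMIs, lay 1.13 below its ratio in maxillary-like cells, 1.42 below that in frontonasal/periocular cells and 2.04 below that in mandibular-like cells. These gaps also depend on how cells are assigned to regions. By marker sums the Runx2 ratio was 0.14 in second arch-like and 0.45 in mandibular-like cells. With groups of 1 library no sample could be compared with others of its group.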

How the results depend on the processing

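Of the alternative values, 288 lay within the counting interval of the reported value (or within 1.5 times a count) and 29 outside it. A further 5 turned the direction of a ratio whose interval excluded 0. Changes of direction in ratios whose interval included 0 were not counted as turned, such as Sox6 in mesenchyme (-0.041 to 0.23). No paired analysis was possible because each group has 1 library, and for the same reason no replicate could be left out. Sox9 in mesenchyme was -0.015 with equal weight per cell, -0.0196 thinned to 5000 UMIs and -0.13 with a mitochondrial limit of 5%, and Sp7 was 0.0134 with that limit. Without the 10 cells highest for the gene, which held a larger share of the control UMIs, Spp1 was 2.97 in mesenchyme and 3.65 in second arch-like cells. At resolution 0.4 Sox9 was -0.19 in maxillary-like and Spp1 1.27 in second arch-like cells. With regions by marker sums, in maxillary-like cells Sox9 was -0.23 and Sox5 -0.17 (scaled lists -0.24), in frontonasal/periocular cells Sox9 was -0.13 (scaled -0.0115), in second arch-like cells Sox9 was 0.32 (scaled -0.0376), Sox5 0.56 and Runx2 0.14, and in mandibular-like cells Runx2 was 0.45. That rule put only 61 control and 43 mutant cells in the second arch, with at most 3 Spp1 UMIs in either library, so that Spp1 has no value there. In glia-like cells with more glia than neuron marker UMIs Sox9 was 0.89 and Sox5 0.35. The list genes past 1.5-fold in mesenchyme numbered 1 as reported, 3 with a minimum of 30 UMIs, 3 with TMM factors and 5 when thinned. Of 16 orders over clusters (8 members in 2 libraries), 9 were the same with equal weight per cell, and 15 had the same highest cluster. The cause of these shifts was not tested. The alternatives chosen after seeing the data were the scaled lists, those for glia-like cells, and leaving out the doublet-rich cluster, cells with immune UMIs or, in a cluster, the cells highest for a gene. Among the ratios that kept their direction under every alternative tried there were Runx2 (0.19 to 0.38) in maxillary-like and Runx1 (-2.06 to -1.41) in mandibular-like cells. Cnmd (2.82 to 3.67) in glia-like cells was another. The mitochondrial limit of 5% and clustering without integration were tried over all mesenchyme only, not within clusters or glia-like cells. Depth limits Acan, Cnmd, Sp7 and Alpl in mesenchyme, where a cluster holds few of their UMIs.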

Other observations

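Cnmd and Alpl, named for cartilage and bone, had most of their UMIs in cells without a mesenchymal profile. In the finer classes, Cnmd was 21.2 CPM in control and 17.7 in mutant cells of a neuron class led by Lhx1, Otp and Gad2, and 19.9 and 20.3 CPM in a class led by Atoh1 and Evx1. In brain progenitor-like cells it had 0 control and 3 mutant UMIs. Alpl was 18.7 and 19.0 CPM in the Lhx1-led neurons and 14.8 and 12.6 CPM in the brain progenitor-like cells, but 3.22 and 2.52 CPM in the Atoh1-led cells. Sox9 was 157 and 179 CPM in brain progenitor-like cells, beside 159 and 151 CPM in mesenchyme, and 39.5 and 31.9 CPM in the Lhx1-led neurons. Spp1 had 2 control and 28 mutant UMIs in the neuron and brain progenitor class, the latter in 11 cells.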
